A study of Saccharomyces cerevisiae with 7 samples.

Results

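The yeast features described here carry a systematic name with a letter suffix and no gene symbol in the count files, such as YBR012W-B, a kind of name given to open reading frames (ORFs) added to the annotation late. They were chosen by that name and by a sum of at least 70 raw counts over the 7 libraries, which left 116 members of 260 features that matched the name and of 6341 features counted in all. The libraries hold RNA from purified Saccharomyces cerevisiae ribosomes. Minus_Rps26 (3 libraries) and Plus_Rps26 (3 libraries) came from a BY4741 strain in which RPS3 and RPS26A are driven by the GAL1 promoter, RPS26B is deleted and a pCM189 plasmid carries Rps3-TAP, a tagged protein of the small ribosomal subunit. That strain was grown in galactose with 0.2 µg/ml doxycycline and then shifted for 4 h to glucose without doxycycline. The Minus_Rps26 libraries hold the ribosomes that bound IgG beads and were released by TEV protease. The Plus_Rps26 libraries hold the ribosomes of the flowthrough, collected from a sucrose gradient. Rps3_TAP (1 library) came from another strain with Rps3-TAP at its own locus, in mid-log growth in glucose, and holds a bead eluate. Cells of all 3 groups were treated with 100 µg/ml cycloheximide, so each group is a model of ribosome-bound RNA in cycloheximide. Minus_Rps26 and Plus_Rps26 differ in purification route as well as in Rps26. Rps3_TAP differs from both in strain and medium history, and from Plus_Rps26 in purification route as well. These differences and any effect of Rps26 cannot be told apart.

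Rps26 sits at the mRNA exit channel of the small subunit, near the bases just before the start codon. Small ORFs encode short proteins, many of them subunits or assembly factors of mitochondrial and membrane complexes, and a large part of those in yeast has no assigned function. Ty elements are yeast retrotransposons, in which Gag forms the virus-like particle. The protease, integrase and reverse transcriptase are made as a Gag-Pol fusion after a programmed frameshift, so that a Gag-Pol ORF commonly overlaps a Gag ORF.

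By annotation the members split into 109 small ORFs and 7 Ty ORFs. The small ORFs had a median length of 205.5 bases, with a range of 87 to 1392, and 91 of the 108 with a position were under 300 bases. Lengths, also where called coding length, are spans from start to end coordinate with any intron in them. They lie on all 16 chromosomes. No overlap with another annotated gene was found for 104 of them, 4 overlap a gene on the opposite strand (YER038W-A, YGL041W-A, YJL077W-A and YMR316C-A), and YOL013W-B could not be placed. In RefSeq 32 of them now have a symbol. No source used here gives the strand setting of the counting, and counts of those 4 and of their antisense partners cannot be told apart. The Ty members are the Ty1 Gag-Pol ORFs YBR012W-B, YDR261C-D, YNL054W-B and YPR158W-B, the Ty3 Gag-Pol ORFs YGR109W-B and YIL082W-A, and the Ty1 Gag ORF YLR256W-A. In the annotation used, 5 of the Ty members overlap another ORF on the same strand, and YIL082W-A and YLR256W-A overlap none. How reads in such overlaps were counted is not given. Of 68 Ty ORFs that matched the name, 61 fell under the minimum.

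The minimum used these same counts, so membership says only that a feature was counted. Just inside it were YLR412C-A with 71, YMR175W-A with 72 and YGR146C-A with 73 counts. Just outside were YOR008C-A with 67, and YMR030W-A and YOR011W-A with 64 counts each. In 70 members each library held at least 10 counts, 45 members summed to 1000 or more, and 8 were at 0 in some library. Without the Minus_Rps26 counts 30 members would fall under the minimum, 4 Ty ORFs (YBR012W-B, YGR109W-B, YIL082W-A and YPR158W-B) among them, without those of Plus_Rps26 14, and without that of Rps3_TAP 4. Such members were chosen through their level in that group, so their differences, and medians over the members, are given as a description.

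The libraries held 9605899 to 21405499 counts each. CPM here is the count scaled to the depth of its library times a TMM scaling factor. These factors were 1.40 to 1.45 in Minus_Rps26, 0.63 to 1.18 in Plus_Rps26 and 0.61 in Rps3_TAP. Differences in CPM are therefore not differences in the plain share of counts. RPS26A, driven by the GAL1 promoter, stood at 44.2, 25.4 and 35.1 CPM in Minus_Rps26, 48.2, 111 and 96.9 CPM in Plus_Rps26 and 10140 CPM in Rps3_TAP. RPS26B, deleted in that strain, stood at 0.776, 0.623 and 0.555 CPM in Minus_Rps26, 0.885, 15.1 and 1.15 CPM in Plus_Rps26 and 1441 CPM in Rps3_TAP. The targeted genes were thus low beside Rps3_TAP in all 6 libraries of that strain. Plus_Rps26 replicate 2 nevertheless held 142 counts of the deleted RPS26B, and their source was not tested. Reads placed at several sites were tallied apart from the features, at 11530659 to 18980582 alignments per library, except in replicate 3 of Minus_Rps26 and of Plus_Rps26, where the tally is 0. Ty copies are near-identical, so their counts are uncertain, and replicate 3 may have treated such reads in another way.

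The authors' tables give 20 bases before the start codon for 108 of the 116 members. The bases are shown here because Rps26 lies beside them in the ribosome. Each run reads 5′ to 3′ on the strand of the ORF and ends at position -1, the base before the start codon; capitals mark positions -4 to -1. This numbering was set from the authors' own sequences, in which A is most frequent at position -3. The first 6 are members that were lower in Minus_Rps26 than in Plus_Rps26 or among the most abundant, and the last 5 are members that stood apart in Minus_Rps26 against Rps3_TAP.
YJR112W-A: aaagaccacaagagcaAACA
YKL033W-A: tttcttttttttaacaAATT
YPR170W-B: aagcaaacaccgcaaaAAAA
YLR264C-A: ttattatattgagtaaGTAC
YDR524C-B: cactaatcatcaacaaAACA
YPR036W-A: aaaaaacaaaaatttcAACA
YLR342W-A: tagttttatattatagGTAT
YLR285C-A: cgtcaaggtaccctgcCTTC
YMR230W-A: tcactttatttcctttTACA
YGL188C-A: gaaccatagtcttaagTAGT
YOL038C-A: tattcaacttatatgaTTTG
At position -3, 60 of 108 members (55.6%) had A, against 60.8% of 5684 features with a sequence. T stood there in 20.4% of members, against 10.9% of all, and G in 11.1% of members, against 19.5% of all. At position -4, T stood in 33.3% of members, against 21.6% of all.

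Few members held most of the counts. YPR036W-A (SPO24 in RefSeq), known for a role in sporulation, stood at 1689, 2149 and 1891 CPM in Minus_Rps26, 2890, 2447 and 2597 CPM in Plus_Rps26 and 2302 CPM in Rps3_TAP. YDR524C-B, an uncharacterised ORF at chrIV:1489598-1489798 on the minus strand, stood at 1339, 1476 and 916 CPM in Minus_Rps26, 2142, 2949 and 1424 CPM in Plus_Rps26 and 7062 CPM in Rps3_TAP. YMR122W-A (NCW1), a cell wall protein, stood at 550.4, 388 and 324 CPM in Minus_Rps26, 549, 1113 and 917 CPM in Plus_Rps26 and 2363 CPM in Rps3_TAP. These 3 ORFs held 60.2% to 72.5% of all member counts in a library. Per kilobase of coding length, SPO24 ranked 1 of 5873 nuclear coding features in Minus_Rps26, 14 in Plus_Rps26 and 32 in Rps3_TAP; YDR524C-B ranked 5, 21 and 5 in the same order of groups. Between Minus_Rps26 and Plus_Rps26 the log2 fold change was -0.47 ± 0.31 (SE) for SPO24, -0.81 ± 0.37 for YDR524C-B and -1.04 ± 0.36 for NCW1, with adjusted p of 0.281, 0.135 and 0.0635 in edgeR's quasi-likelihood test. None of the 3 passed the test. All small ORF members together took 0.734% ± 0.081 of the counts in Minus_Rps26, 0.739% ± 0.203 in Plus_Rps26 (SD, n = 3 each) and 1.09% in Rps3_TAP, with an exact two-sided permutation p of 1.0 between Minus_Rps26 and Plus_Rps26 (smallest possible 0.1).

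Minus_Rps26 was set against Plus_Rps26 to see which RNAs the 2 ribosome fractions hold in different amounts. Among small ORF members 11 fell and none rose, and most of the rest had negative fold changes. The ORFs that fell are MCO6, MIN9, ATG44, EGO2, MEO1, COQ21 and 5 ORFs without a symbol. A Ty1 Gag-Pol ORF, YBR012W-B, passed the test as higher, with 191 of its 224 counts in Minus_Rps26, so that it reached the minimum only through that group. Of 113 members tested, 11 were lower, against a background of 7.9% of 5668 features, and 1 was higher, against 8.1% (16% in either direction); the members' share of lower calls is near the background, and their share of higher calls is below it. RNA level in the cell and loading on ribosomes cannot be told apart here, since no input RNA was analysed. In DESeq2, 24 members were lower and 1 higher, against 863 lower and 706 higher of all features. The median log2 fold change was -0.47 over 106 small ORF members, of which 83 were negative, against 0.03 over all features tested. It was -0.90 over 102 features whose locus tag has a suffix but which have a symbol (33 lower), and -0.95 over 109 nuclear coding features under 300 bases that are no members (42 lower). Each replicate had its own median of log2 ratios over the small ORF members: 0.01 in replicate 1, -0.74 in replicate 2 and -0.58 in replicate 3. Calls increased when Plus_Rps26 replicate 1 was left out, to 32 members lower and 3 higher, against 1223 lower and 1272 higher of all features. They depended on each of the other libraries, since no member passed without any one of them.

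**Figure D1:**
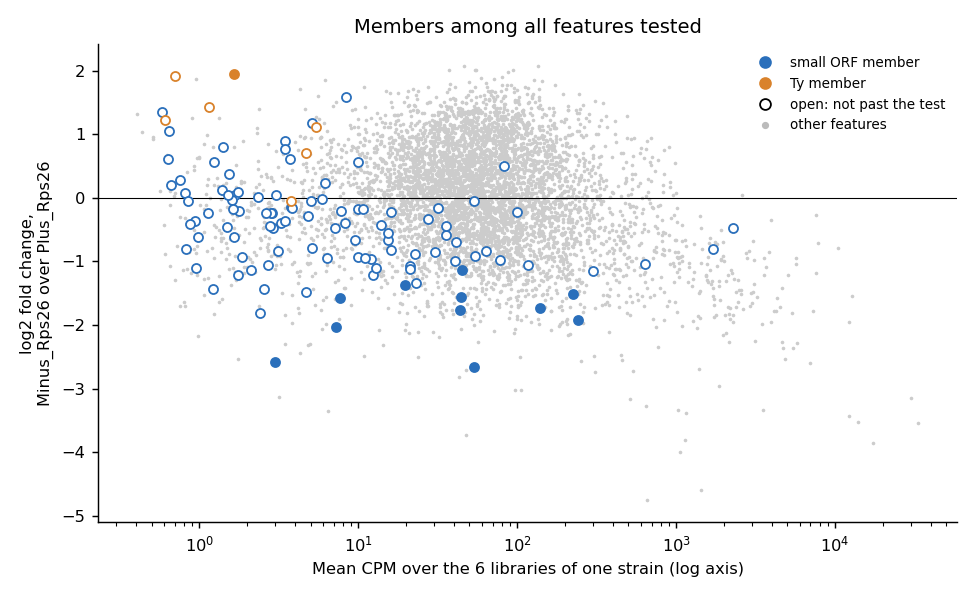
Log2 fold change of Minus_Rps26 over Plus_Rps26 (vertical axis) against mean CPM over the 6 libraries (log axis) for every feature tested, with small ORF members in blue, Ty members in orange and members past the test filled. The small ORF members lie mostly below 0 (83 of 106 negative), and 6 of 7 Ty members lie above it at low CPM, of which 4 were members only through their Minus_Rps26 counts.

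MCO6 (YJL127C-A), a small mitochondrial protein, stood at 19.3, 21.7 and 19.1 CPM in Minus_Rps26, 25.03, 96.1 and 82.3 CPM in Plus_Rps26 and 190.3 CPM in Rps3_TAP. The groups did not overlap, but Plus_Rps26 replicate 1 lay close to the Minus_Rps26 libraries. Its log2 fold change was -1.76 ± 0.43 (SE, edgeR adjusted p = 0.036). ATG44 (YIL156W-B), the mitofissin that divides mitochondria during mitophagy, stood at 21.3, 23.2 and 23.0 CPM in Minus_Rps26, 34.1, 96.7 and 68.1 CPM in Plus_Rps26 and 128 CPM in Rps3_TAP. Every Minus_Rps26 library was below every Plus_Rps26 library, and the log2 value fell by 1.56 ± 0.37 (edgeR adjusted p = 0.0357). MIN9 (YKL023C-A), named here after its values were seen, stood at 28.3, 31.7 and 24.8 CPM in Minus_Rps26 and 42.4, 72.6 and 70.9 CPM in Plus_Rps26, so that it fell by 1.14 ± 0.30 in log2 (edgeR adjusted p = 0.0365). Of 9 members with an MCO or MIN symbol, 2 fell, and the other 7 had log2 fold changes of -1.21 to 0.13 and did not pass. EGO2 (YCR075W-A), part of the vacuolar EGO complex that acts on TORC1, stood at 14.0, 9.23 and 9.59 CPM in Minus_Rps26, 22.0, 26.9 and 35.7 CPM in Plus_Rps26 and 85.2 CPM in Rps3_TAP. The groups did not overlap, and replicate 1 of Plus_Rps26 lay nearer to the rest of its group than in MCO6. The log2 fold change was -1.37 ± 0.34 (edgeR adjusted p = 0.036).

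MEO1 (YBR126W-A) stood at 66.8, 85.0 and 41.7 CPM in Minus_Rps26, 106, 333 and 199 CPM in Plus_Rps26 and 1027 CPM in Rps3_TAP. COQ21 (YBR230W-A) stood at 3.88, 3.70 and 3.95 CPM in Minus_Rps26, 5.57, 16.7 and 11.9 CPM in Plus_Rps26 and 30.4 CPM in Rps3_TAP. Neither overlapped between Minus_Rps26 and Plus_Rps26, and both were highest in Rps3_TAP. Their log2 fold changes between Minus_Rps26 and Plus_Rps26 were -1.73 ± 0.43 and -1.57 ± 0.46 (edgeR adjusted p = 0.036 and 0.0444).

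**Figure D2:**
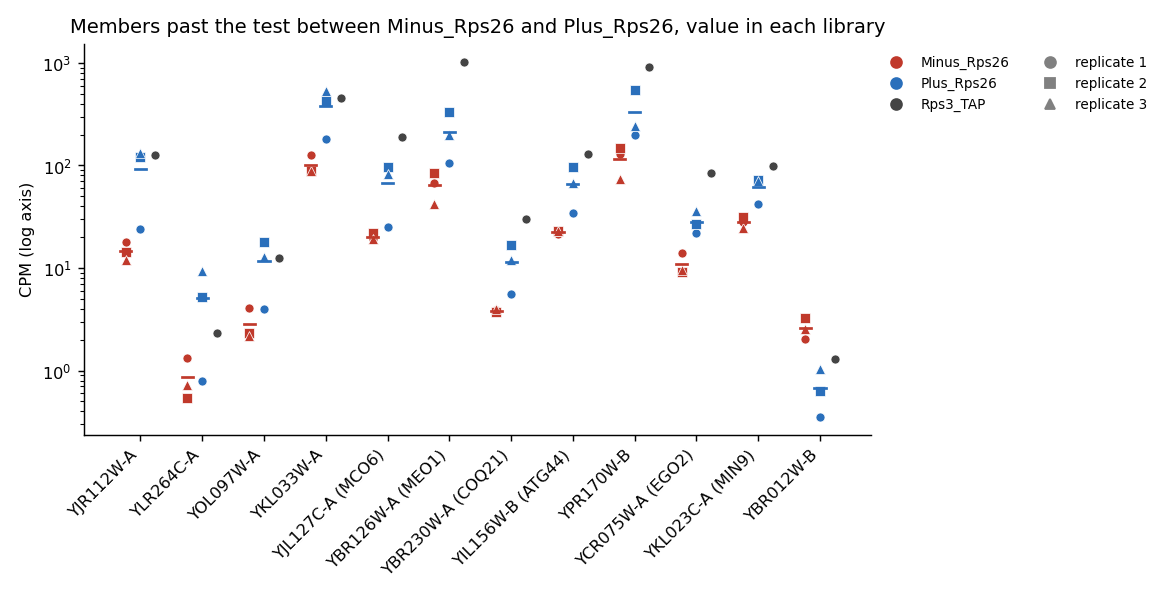
CPM (log axis) in each library of the 12 members past the test between Minus_Rps26 (red) and Plus_Rps26 (blue), with Rps3_TAP in grey, replicates by shape and group means as bars. In the 11 members that fell, Plus_Rps26 replicate 1 (blue circle) is the lowest of its group.

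Among the ORFs without a symbol, YJR112W-A (chrX:637790-638168, plus strand) had the largest fall of the 11. It stood at 17.8, 14.4 and 11.9 CPM in Minus_Rps26, 24.0, 120.3 and 131.5 CPM in Plus_Rps26 and 128 CPM in Rps3_TAP. The Minus_Rps26 libraries lie close together and the 3 Plus_Rps26 values do not; YJR112W-A fell by 2.65 ± 0.53 in log2 (edgeR adjusted p = 0.0357). It lies 154 bases downstream of NNF1 on the same strand, and NNF1 had a log2 fold change of -0.23 ± 0.31. YKL033W-A, similar to HAD-family hydrolases, stood at 126, 88.4 and 88.7 CPM in Minus_Rps26, 183, 426 and 538 CPM in Plus_Rps26 and 451 CPM in Rps3_TAP. No library overlapped, and the log2 fold change was -1.93 ± 0.40 (edgeR adjusted p = 0.0357). YPR170W-B stood at 128, 147 and 73.2 CPM in Minus_Rps26, 199, 548 and 242 CPM in Plus_Rps26 and 912 CPM in Rps3_TAP, and fell by 1.51 ± 0.42 in log2 (edgeR adjusted p = 0.0409). YOL097W-A and YLR264C-A were called although their groups overlapped: YLR264C-A had 22, 13 and 22 raw counts in Minus_Rps26 and 9, 49 and 89 in Plus_Rps26. Their log2 fold changes were -2.04 ± 0.57 and -2.59 ± 0.78 (edgeR adjusted p = 0.04 and 0.0475).

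Over the 113 members tested, every Minus_Rps26 library lay below every Plus_Rps26 library in 25, against 17.4% of all features, and above in 5, against 21%. The widest ranges over the 6 libraries were in YNR034W-A, YJR112W-A and YLR264C-A. YNR034W-A (EGO4), a paralog of EGO2 in the same complex, stood at 25.5, 1.58 and 3.03 CPM in Minus_Rps26, 18.0, 4.998 and 10.8 CPM in Plus_Rps26 and 17.5 CPM in Rps3_TAP. Its replicates spread more than its groups differed, with a log2 fold change of -0.17 ± 0.86, where EGO2 fell.

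The fold change varied with abundance inside the small ORFs, and its median over members differed by the base at position -3. The 45 with 1000 or more counts had a median log2 fold change of -0.91 with 8 lower, and 61 with fewer counts had -0.24 with 3 lower. The 32 with a RefSeq symbol had -0.81 with 6 lower, and 74 tested without one had -0.38 with 5 lower. Over 105 small ORFs with a length, Spearman's rho was -0.43 between counts and fold change and -0.13 between coding length and fold change. Over 5534 nuclear coding features, rho between length and fold change was 0.688. Of the small ORFs with a position, 91 of 108 are under 300 bases. Their lengths vary little, so rho inside them cannot decide whether they follow the trend of all features. These points share libraries and depth. Without the Minus_Rps26 counts 26 small ORFs, all among those with few counts, would fall under the minimum. Their selection favours a high Minus_Rps26 level, so the medians by abundance and rho are given as a description. Members with A at position -3 had a median of -0.74 (8 of 58 lower), with G -0.35 (2 of 12), with C -0.35 (0 of 14) and with T -0.25 (1 of 21). Over all features the medians were -0.03 for A (308 of 3377 lower), 0.10 for G (63 of 1074), 0.18 for C (25 of 480) and 0.14 for T (22 of 589). A had the lowest median in both sets, so this is not particular to the members. At position -4 the member medians were -0.57 for A, -0.55 for C, -0.44 for T and -0.21 for G. Over all features they were 0.006, -0.006, 0.11 and 0.10 in the same order. Whether base and abundance vary together was not tested.

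**Figure D3:**
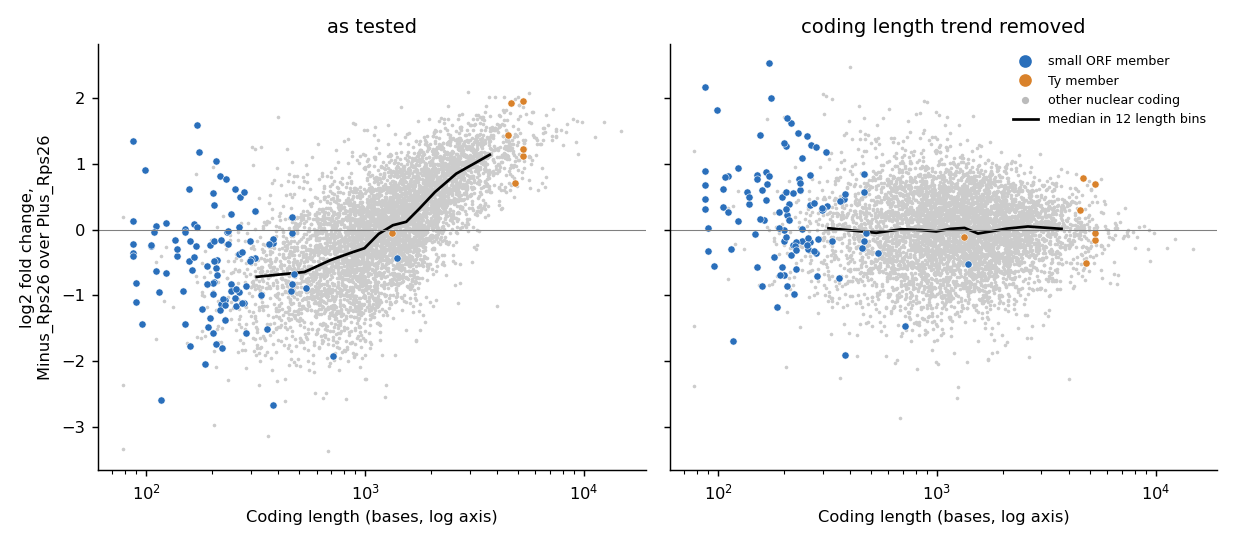
Log2 fold change of Minus_Rps26 over Plus_Rps26 (vertical axis) against coding length (log axis) for nuclear coding features, as tested (left) and with the trend of CPM with coding length removed in each library (right); the black line is the median in 12 length bins. The small ORF members (blue) have a median of -0.47 on the left and 0.30 on the right, and the Ty members (orange) 1.22 on the left and -0.05 on the right.

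Coding length moves with these medians. With the length trend removed in each library, the median was 0.30 over the small ORF members and -0.05 over the Ty members, and none of the members (19 had an unadjusted p under 0.05) or of all features passed. Scaling by total counts alone gave medians of 0.30 over the small ORF members and 2.06 over the Ty members against 0.75 over all features, with 5 members higher and 1 lower, against 1042 higher and 37 lower of all features. Relative to that shift the small ORF median stayed lower and the Ty median higher; with the length trend removed, when all features had -0.01, the small ORF median was the higher.

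Ty members were counted at very low levels. Summed, the 7 took 0.0022%, 0.00366% and 0.00408% of the counts in Minus_Rps26 (255, 627 and 874 counts), 0.00232%, 0.000686% and 0.000596% in Plus_Rps26 (223, 85 and 91 counts) and 0.000508% in Rps3_TAP (82 counts). Replicate 1 had a log2 ratio (Minus_Rps26 over Plus_Rps26) of -0.08, against 2.41 and 2.78 for the other replicates, so the groups overlapped through replicate 1. The exact two-sided permutation test over libraries gave p = 0.2 (smallest possible 0.1). Of the 7, 4 were members only through their Minus_Rps26 counts. The share is thus partly set by that choice, and the test cannot decide whether it differs between the groups.

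**Figure D4:**
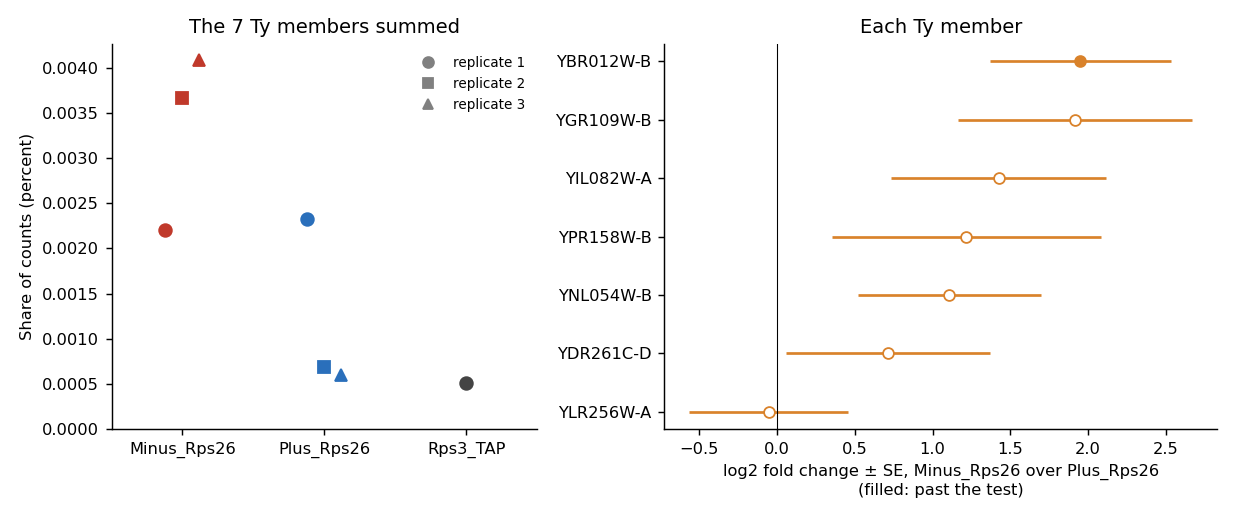
Left, share of all counts in the 7 Ty members in each library, by group and replicate; right, log2 fold change of Minus_Rps26 over Plus_Rps26 with its SE for each Ty member, filled where past the test. In replicate 1 the summed shares of Minus_Rps26 and Plus_Rps26 are alike at 0.0022% and 0.00232%, and only YBR012W-B passed the test.

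YBR012W-B (chrII:259869-265140, plus strand) had 34, 79 and 78 counts in Minus_Rps26, 4, 6 and 10 in Plus_Rps26 and 13 in Rps3_TAP. Its groups did not overlap, and its log2 level was 1.95 ± 0.58 higher in Minus_Rps26 (SE, edgeR adjusted p = 0.0462). With the length trend removed the log2 difference was 0.69 (edgeR adjusted p = 0.509), and with a library left out it was 1.57 to 2.36 (edgeR adjusted p = 0.0612 to 0.207). The Ty3 ORF YGR109W-B had 12, 43 and 26 counts in Minus_Rps26, 6, 1 and 2 in Plus_Rps26 and 1 in Rps3_TAP, and the other Ty3 ORF, YIL082W-A, had 15, 74 and 33 in Minus_Rps26, 9, 7 and 3 in Plus_Rps26 and 6 in Rps3_TAP. Neither passed the test, with log2 fold changes of 1.92 ± 0.75 and 1.43 ± 0.69. YNL054W-B had 82, 200 and 282 counts in Minus_Rps26, 76, 12 and 22 in Plus_Rps26 and 18 in Rps3_TAP. YDR261C-D had 73, 117 and 252 counts in Minus_Rps26, 87, 14 and 13 in Plus_Rps26 and 3 in Rps3_TAP. In CPM, replicate 1 was lower in Minus_Rps26 than in Plus_Rps26 for both ORFs (4.89 against 6.72 CPM for YNL054W-B, 4.36 against 7.70 CPM for YDR261C-D), and the log2 fold changes were 1.11 ± 0.59 and 0.71 ± 0.66. YPR158W-B had 9, 25 and 30 counts in Minus_Rps26, 3, 0 and 8 in Plus_Rps26 and 2 in Rps3_TAP. The Gag ORF YLR256W-A had 30, 89 and 173 counts in Minus_Rps26, 38, 45 and 33 in Plus_Rps26 and 39 in Rps3_TAP; its log2 fold change was -0.05 ± 0.51, and it alone of the 7 had a negative one. Of 19 Ty ORFs without a suffix, 2 could be tested and neither passed.

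Genes known from yeast genetics to act on Ty elements were listed from textbook knowledge. Of 16 that promote Ty transcription or transposition, 3 rose and none fell, against 8.1% higher and 7.9% lower over all features, with a median log2 fold change of 0.79. SNF2, the ATPase of the SWI/SNF chromatin remodeller, averaged 178 CPM in Minus_Rps26 and 53.7 CPM in Plus_Rps26 (log2 fold change 1.73 ± 0.34, edgeR adjusted p = 0.0357), and SPT7, a subunit of the SAGA coactivator, had 1.61 ± 0.29 (edgeR adjusted p = 0.0357). Of 18 listed as restricting Ty elements, 2 rose, near the share over all features, and none fell, with a median of 0.74. HIR3, of a histone chaperone, had 1.42 ± 0.29. XRN1, the cytoplasmic exonuclease, had 1.25 ± 0.31, and its place in this list of restricting genes is doubtful. The median coding lengths of these lists were 1684 and 2274 bases, against 1190.0 over all features, and their part in the counts was not tested.

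Against Rps3_TAP, the comparison asks how ribosome-bound RNA of the depleted strain differs from that of another strain with its own Rps26. It rests on 1 Rps3_TAP library, whose spread is taken from the other groups in the fit. Of 116 members, 29 small ORFs were lower in Minus_Rps26 than in Rps3_TAP, against 15.6% of 5815 features, and 9 members were higher, 8 small ORFs and the Ty1 ORF YDR261C-D, against 10.6% (26.2% in either direction). Comparisons of Minus_Rps26 and of Plus_Rps26 with Rps3_TAP share that library. Without Minus_Rps26 replicate 3, 21 members were lower and 2 higher, against 445 lower and 170 higher of all features. The balance turned with the scaling: total counts alone gave 13 members lower and 19 higher, against 147 lower and 1644 higher of all features, and removing the length trend gave 11 lower and 14 higher, against 482 lower and 227 higher of all features. The members with the lowest fitted fold change were YGL188C-A, YER053C-A and YOL038C-A.

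YGL188C-A (chrVII:148824-148964, minus strand) had 0, 0 and 0 counts in Minus_Rps26, 0, 9 and 0 in Plus_Rps26 and 261 in Rps3_TAP. It is a member only through its Rps3_TAP counts, 261 of 270. It was at least 196.6-fold lower in Minus_Rps26 than in Rps3_TAP, with the floor set at 3 counts in each library. It ends 235 bases before RPS26A on the same strand, whose promoter was replaced by that of GAL1 in this strain, and COX4 on its other side, 739 bases away, stood at 77.0 CPM in Minus_Rps26, 166 CPM in Plus_Rps26 and 151 CPM in Rps3_TAP. Both fractions of the depleted strain were at or near 0, while Rps3_TAP, a bead eluate like Minus_Rps26, was not; the strain and its growth medium cannot be told apart. YER053C-A stood at 7.58, 0.748 and 4.73 CPM in Minus_Rps26, 10.8, 2.98 and 11.2 CPM in Plus_Rps26 and 96.1 CPM in Rps3_TAP, and YOL038C-A stood at 1.43, 1.79 and 0.913 CPM in Minus_Rps26, 2.74, 5.42 and 2.92 CPM in Plus_Rps26 and 25.3 CPM in Rps3_TAP. Both groups of the depleted strain were below the Rps3_TAP library in each. The log2 fold changes of Minus_Rps26 over Rps3_TAP were -4.47 ± 0.87 and -4.20 ± 0.59 (SE, edgeR adjusted p = 0.00681 and 0.00238).

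The 3 members with the highest fitted fold change of Minus_Rps26 over Rps3_TAP were uncharacterised ORFs with 0 or 1 counts in Rps3_TAP, where the fit depends on the prior count and gives no firm order. YLR342W-A (chrXII:815810-815983, plus strand) had 133, 43 and 359 counts in Minus_Rps26, 26, 18 and 50 in Plus_Rps26 and 0 in Rps3_TAP, at least 23.6-fold higher in Minus_Rps26 and at least 10.4-fold higher in Plus_Rps26 than the floor of 3 counts. YMR230W-A had 52, 40 and 60 counts in Minus_Rps26, 20, 66 and 30 in Plus_Rps26 and 0 in Rps3_TAP, at least 7.41-fold higher in Minus_Rps26. YLR285C-A had 159, 253 and 539 counts in Minus_Rps26, 23, 75 and 24 in Plus_Rps26 and 1 in Rps3_TAP, a ratio of 124 (exact Poisson 95% interval 22.3 to 4908, counting error of the single library only). All 3 were counted in each library of the depleted strain and hardly in Rps3_TAP. The Ty1 ORF YDR261C-D, with 3 counts in Rps3_TAP, had a ratio of 19.2 (interval 6.58 to 93.2) in Minus_Rps26 and 11.6 (interval 3.98 to 56.3) in Plus_Rps26.

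**Figure D5:**
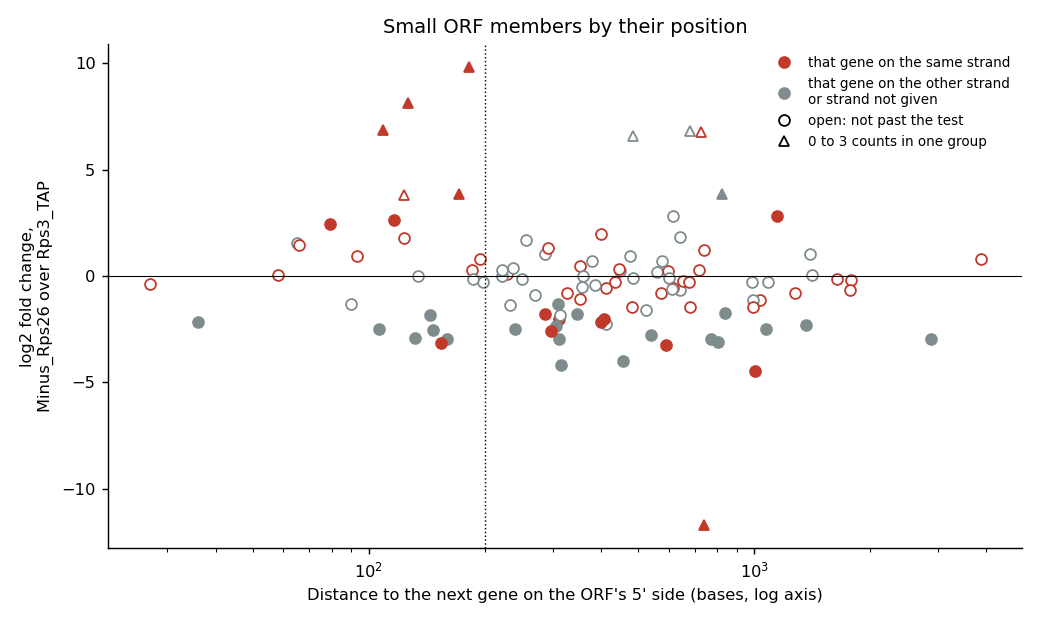
Log2 fold change of Minus_Rps26 over Rps3_TAP (vertical axis) of the small ORF members against the distance to the next gene on the 5′ side (log axis), red where that gene is on the same strand, filled where past the test, triangles where a group had 0 to 3 counts and the fitted value depends on the prior count. Left of the dotted line at 200 bases, 6 of the 8 higher members lie behind a gene on the same strand.

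These 3 share a position. YLR342W-A starts 182 bases after FKS1, a glucan synthase gene, YMR230W-A 126 bases after RPS10B, a ribosomal protein gene, and YLR285C-A 109 bases after CTS1, the chitinase gene, each on the same strand. Of the 8 small ORFs higher in Minus_Rps26 than in Rps3_TAP, 6 start within 200 bases after a gene on the same strand, against 1 of 29 lower and 8 of 71 not called; the window was chosen after the values were seen. The other 3 of the 6 are YCR024C-B behind PMP1, a proton pump regulator, YHR050W-A behind SMF2, a manganese transporter, and YHR175W-A behind CTR2, a vacuolar copper transporter. The 2 higher members placed elsewhere are YLR307C-A, with 71, 54 and 79 counts in Minus_Rps26, 36, 30 and 50 in Plus_Rps26 and 2 in Rps3_TAP, and YMR158C-B, with 98, 77 and 121 in Minus_Rps26, 47, 42 and 69 in Plus_Rps26 and 6 in Rps3_TAP. YCR024C-B, 79 bases behind PMP1, stood at 117, 40.7 and 134 CPM in Minus_Rps26, 59.5, 62.3 and 84.6 CPM in Plus_Rps26 and 17.5 CPM in Rps3_TAP, while PMP1 averaged 75.7 CPM in Minus_Rps26, 90.6 CPM in Plus_Rps26 and 60.7 CPM in Rps3_TAP. RPS10B averaged 805 CPM in Minus_Rps26, 1797 CPM in Plus_Rps26 and 2428 CPM in Rps3_TAP, so it was lower in Minus_Rps26 than in Rps3_TAP while the ORF behind it was higher. FKS1 averaged 1048 CPM in Minus_Rps26, 621 CPM in Plus_Rps26 and 687 CPM in Rps3_TAP. CTS1 averaged 575 CPM in Minus_Rps26, 352 CPM in Plus_Rps26 and 222 CPM in Rps3_TAP. SMF2 averaged 78.9 CPM in Minus_Rps26, 118.9 CPM in Plus_Rps26 and 62.0 CPM in Rps3_TAP. CTR2 averaged 26.25 CPM in Minus_Rps26, 48.7 CPM in Plus_Rps26 and 98.9 CPM in Rps3_TAP. The 15 small ORFs in such a position had a median log2 fold change of 1.82 for Minus_Rps26 and 1.23 for Plus_Rps26 over Rps3_TAP, and the 93 elsewhere had -0.57 and -0.11. Several of the 15 reached the minimum only through Minus_Rps26, such as YHR007C-A with 36 counts outside that group. Their selection favours a high Minus_Rps26 level, so these medians are a description and lend the position no weight. Whether reads that run past the end of the neighbouring gene entered these counts was not tested.

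Plus_Rps26 against Rps3_TAP gave 3 members lower, against 1.27% of 5815 features, and none higher, against 0.206% (1.48% in either direction); 36 had an unadjusted p under 0.05, and DESeq2 gave 12 lower and 10 higher, against 290 lower and 169 higher of all features. With the length trend removed 1 member was higher and none lower, against 11 higher and 54 lower of all features. The 3 are YGL188C-A and YOL038C-A, above, and YDL085C-A. YGL188C-A is a member only through its Rps3_TAP counts, so its selection favours a fall against Rps3_TAP. Its log2 fold change of Plus_Rps26 over Rps3_TAP was -6.39 ± 1.20 here and -0.34 in the authors' deposited values, and its size is uncertain. YDL085C-A stood at 39.6, 59.9 and 28.5 CPM in Plus_Rps26 and 192 CPM in Rps3_TAP, and fell by 2.17 ± 0.43 in log2 (SE, edgeR adjusted p = 0.0378). YOL038C-A had -2.78 ± 0.58 (edgeR adjusted p = 0.0464). No calls were left with the 2 groups alone in the fit. Without Plus_Rps26 replicate 1, 12 members were lower and 7 higher, against 381 lower and 205 higher of all features. Without replicate 2, 7 members were lower, against 76 of all features, and without replicate 3, 1 member was, against 27 of all features.

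In the authors' deposited table for Minus_Rps26 against Plus_Rps26, 102 members have an adjusted p, with 2 higher and 28 lower under 0.05, against 13.5% and 15.7% of all features in it. In the authors' deposited table for Minus_Rps26 against Rps3_TAP, 13 members were higher and 33 lower, against 22.1% and 24.5%. In the authors' deposited table for Plus_Rps26 against Rps3_TAP, 6 were higher and 6 lower, against 1.03% and 2.6%. Over features in both, the log2 fold changes in the authors' deposited table correlated with those computed here at 0.998, 0.96 and 0.903 in the order of these 3 comparisons.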

How the data were processed

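The authors deposited raw counts per feature for 7 libraries of ribosome-bound RNA, depleted of rRNA and prepared with a TruSeq kit that keeps strand, per the labels' protocols. TopHat2 2.0.9, sacCer3, DESeq and DESeq2 are named in the submitters' processing notes. Which program counted the reads, and with which strand setting, is not given in the sources used here. The authors' deposited tables give log2 fold changes and adjusted p-values. Each count file ends in 5 lines for reads given to no feature, which stayed out of library sizes; 3.37% to 7.48% of reads fell in no feature and 0.148% to 2.75% were ambiguous.

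Members and lists were chosen with earlier results of these data known. Coordinates, symbols and lengths are from the RefSeq table of R64, the assembly of sacCer3, to which 115 members matched. What is called coding length is the span from start to end coordinate, with any intron in it. YER138W-A, on the list of Ty ORFs, lies outside every Ty ORF and was counted as a small ORF. Counts were tested with edgeR 4.0.16 (R 4.3.3): TMM scaling, default filter on low counts, quasi-likelihood test, Benjamini-Hochberg adjustment over all features at 0.05. The 6 libraries of one strain gave the fit of Minus_Rps26 against Plus_Rps26; comparisons with Rps3_TAP used all 7 libraries. SE is the log2 fold change over the square root of F. CPM use library depth times TMM factors computed over the 7 libraries. Replicate log2 ratios use CPM plus 0.5. With 3 members under the filter, 113 were tested between Minus_Rps26 and Plus_Rps26. Alternatives were DESeq2 1.42.0, limma-voom 3.58.1, other scalings and filters, a lowess of log2 CPM on log2 coding length (span 0.3) removed in each library, a replicate block, other member minimums and left-out libraries. The fit was tested on simulated data.

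The labels call the libraries biological replicates. Plus_Rps26 replicate 2 has a 1 in its description, and its title was used. By the protocol eluate and flowthrough come from one lysate, but no label says that a shared number marks it, so libraries were not treated as paired. Replicates differed beyond sampling noise (chi-square per degree of freedom 150.7 to 607.6). Members named with values are those called between Minus_Rps26 and Plus_Rps26 (10 per direction), the most abundant (6 small ORFs, 4 Ty), the 3 highest and lowest called against Rps3_TAP, those at the minimum and the 3 with the widest range; other Ty members and neighbouring genes were added after their values were seen.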

Additional observations from a re-analysis of the deposited data

How the results depend on the processing

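Member calls between Minus_Rps26 and Plus_Rps26 (12) were 6 with total counts alone, 25 in DESeq2, 0 with the replicate block, 0 with the length trend removed and 0 with both, 0 without replicate 3 of both groups, and 0 to 35 with a library left out. Calls over all features (907) were 1569 in DESeq2, 0 with the block, with the length trend removed, with both and without replicate 3 of both groups, and 0 to 2495 with a library left out. At an unadjusted p under 0.05 30 members had such a p in edgeR with the block, 19 with the length trend removed, 15 with both and 13 without replicate 3. Against Rps3_TAP, member calls of Minus_Rps26 (38) were 25 (14 higher) with the length trend removed and 23 to 35 with a library left out; calls over all features (1524) were 709 with the length trend removed, 2359 with the 2 groups alone in the fit and 615 to 1312 with a library left out. Member calls of Plus_Rps26 (3) were 0 with total counts, 22 in DESeq2, 1 (higher) with the length trend removed, 0 with the 2 groups alone and 1 to 19 with a library left out; calls over all features (86) were 6, 459, 65, 4 and 29 to 586 under the same settings. The small ORF median of -0.47 was 0.30 with total counts, 0.30 with the length trend removed and 0.24 with the block as well; the Ty median of 1.22 was 2.06, -0.054 and 0.078. These settings reversed YPR036W-A (0.25, 0.31 and 0.32). They also reversed YNR034W-A with total counts (0.46) and the length trend removed (0.33), YNL054W-B (-0.15) and YDR261C-D (-0.51) with the length trend removed, YDR261C-D (-0.12) and YDR524C-B (0.019) with the block as well, and YLR256W-A with total counts (0.72). With libraries left out, YLR256W-A ranged over 0 (-0.49 to 0.27), as did YNR034W-A (-2.28 to 0.34), and without replicate 3 of both groups YDR261C-D (-0.00147) and YNR034W-A (0.23). None of the reversed members had passed the test. The cause was not tested. The replicate block takes same-numbered libraries as pairs, which the labels do not state: after subtracting each group's mean, r between libraries that share a number was -0.211 (1), 0.418 (2) and 0.011 (3), and only those of replicate 2 correlated best with their own number. Permuting the signs of the 3 within-replicate log2 ratios of the Ty share gave an exact p of 0.5 (smallest possible 0.25). Choice of Ty members through Minus_Rps26 bears on that share, so this test cannot decide a difference either. Each Ty member rests on 77 to 692 counts over 7 libraries.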
